A study of Mus musculus with 4 samples.

Results

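The Idd5 neighbourhood is a stretch of 20 Mb on mouse chromosome 1 that holds the costimulatory genes Cd28, Ctla4 and Icos near its start and Slc11a1 near its end. Its members here are all listed regions of 2 active histone marks whose midpoint lies in chr1:58000000-78000000 of the mm10 build, 248 regions of 31315 in the 4 lists. Trimethylation of lysine 4 on histone H3 (H3K4me3) is found at promoters, and acetylation of its lysine 27 (H3K27ac) at active promoters and enhancers. ChIP-Seq of both was performed in embryonic stem (ES) cells of the non-obese diabetic strain NOD and of C57BL/6 (B6), a strain that does not develop diabetes. All cells had been isolated from embryos and were grown in 2i, a pair of inhibitors of MEK and GSK3 that holds ES cells in a pluripotent state, and the labels name no other treatment. There was 1 library for each strain and mark, without replicates, and the sources do not say which of the derived lines gave each library, so strain, cell line and library cannot be told apart. Each list was called by the authors against the library of the other strain and thus holds what one strain had more of. Regions marked alike in both strains, and the total level of a mark at a gene, were not analysed here.

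Idd5 is one of the insulin-dependent diabetes (Idd) intervals that were mapped by crossing NOD mice with resistant strains. Ctla4 encodes an inhibitory receptor of T cells, Icos and Cd28 encode costimulatory receptors, and Slc11a1 (Nramp1) encodes a metal transporter of the phagosome in macrophages. These genes act mainly in immune cells, whereas ES cells stand before the formation of any lineage. The same stretch also holds the cluster of gamma-crystallin genes, which encode structural proteins of the eye lens, the aldehyde oxidase cluster, the imprinted Gpr1-Zdbf2 locus, and signalling genes such as Fzd7, Wnt6, Wnt10a and Ihh.

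The gamma-crystallin promoters are shown first, since the NOD H3K4me3 region with most tags in the neighbourhood covers that of Crygd, while those of Crygb and Crygf had no listed region near them. The promoters of Bzw1 and Ptprn follow for the B6 side. The B6 region of Bzw1 covers the printed stretch, and that of Ptprn lies inside the gene, over another of its start sites, and does not reach the printed stretch. Each line gives the 100 bases upstream of a transcription start site (TSS) in the RefSeq sequence of GRCm38.p6, the build of mm10, read 5′ to 3′ on the strand of the gene, with TATATA and CCTTTTGTG in capitals.
Cryge, chr1:65051164-65051263, minus strand: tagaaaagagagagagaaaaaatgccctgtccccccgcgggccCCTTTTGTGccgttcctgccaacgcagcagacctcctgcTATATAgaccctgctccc
Crygd, chr1:65063441-65063540, minus strand: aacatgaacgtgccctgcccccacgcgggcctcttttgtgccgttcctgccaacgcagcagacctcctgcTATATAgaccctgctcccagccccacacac
Crygc, chr1:65073533-65073632, minus strand: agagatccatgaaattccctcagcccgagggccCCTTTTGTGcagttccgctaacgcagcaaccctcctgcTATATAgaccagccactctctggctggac
Crygb, chr1:65082291-65082390, minus strand: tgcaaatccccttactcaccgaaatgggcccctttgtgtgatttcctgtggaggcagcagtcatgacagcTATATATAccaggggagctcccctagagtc
Cryga, chr1:65103364-65103463, minus strand: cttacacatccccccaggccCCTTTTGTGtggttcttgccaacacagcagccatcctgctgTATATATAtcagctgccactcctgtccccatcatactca
Crygf, chr1:65926422-65926521, plus strand: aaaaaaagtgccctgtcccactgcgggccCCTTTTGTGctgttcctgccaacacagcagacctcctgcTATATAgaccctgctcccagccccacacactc
Bzw1, chr1:58392798-58392897, plus strand: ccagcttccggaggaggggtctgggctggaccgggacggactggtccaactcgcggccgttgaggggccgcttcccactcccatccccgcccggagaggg
Ptprn, chr1:75264209-75264308, minus strand: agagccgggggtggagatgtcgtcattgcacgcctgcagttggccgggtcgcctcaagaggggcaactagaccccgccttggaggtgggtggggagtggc
All 6 gamma-crystallin promoters held TATATA, which stood in 5.67% of 32851 RefSeq promoter windows of 300 bases, and 4 of them held CCTTTTGTG, which stood in 0.377%. The motifs were searched on both strands, were chosen after these sequences had been seen, and are descriptions rather than shown binding sites. Crygd and Cryge shared an unbroken stretch of 56 bases and Crygd and Crygf one of 45 bases. The windows of Bzw1 and Ptprn held neither motif. Their G and C content was 72.0% and 60.3%, against 49.0% for Crygd and a median of 52.7% over all windows.

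Across the neighbourhood, NOD-enriched regions outnumbered B6-enriched regions for both marks. There were 101 NOD and 57 B6 regions of H3K4me3, a ratio of 1.77 (95% interval 1.27 to 2.50). In the narrower span from Ctla4 to Slc11a1 it was 1.44 (0.937 to 2.22), which includes 1. For H3K27ac there were 62 NOD and 28 B6 regions, a ratio of 2.21 (1.40 to 3.59). On the rest of chromosome 1 the counts were 711 and 473 for H3K4me3 and 351 and 307 for H3K27ac. The NOD to B6 ratio of H3K27ac in the neighbourhood was thus 1.94 times that of the rest of the chromosome (1.21 to 3.10), an interval that does not reach 1. It does reach 1 among regions with a score of at least 20 (2.17, 0.976 to 4.84) and among those with a slope value of at least 1, counted here as super enhancers (2.50, 0.479 to 13.1). For H3K4me3 it was 1.18 times (0.835 to 1.66), which includes 1. The NOD H3K4me3 library was the deeper one, with 22750449 tags against 14791364 tags of B6, and its part in the numbers of regions was not tested. How deeply the H3K27ac libraries were sequenced is unknown. All of these intervals cover counting error only, and neighbouring regions are not independent of each other.

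Per unit of length, the neighbourhood held 5.05 NOD H3K4me3 regions per Mb against 4.05 on the rest of the chromosome, a density ratio of 1.25 (1.002 to 1.54). NOD H3K27ac regions stood at 3.10 against 2.00 per Mb, a ratio of 1.55 (1.16 to 2.04). The B6 densities were 2.85 against 2.70 per Mb for H3K4me3, a ratio of 1.06 (0.789 to 1.39), and 1.40 against 1.75 per Mb for H3K27ac, a ratio of 0.800 (0.523 to 1.18). Gene density moved with these values, with 7.60 protein-coding genes per Mb in the neighbourhood and 5.88 on the rest of the chromosome. Counted per gene, the ratio for NOD H3K4me3 turned to 0.964 (0.774 to 1.19), that for NOD H3K27ac became 1.20 (0.899 to 1.57) and that for B6 H3K27ac 0.619 (0.404 to 0.912), while B6 H3K4me3 stood at 0.817 (0.610 to 1.08). The set of intervals that include 1 thus changed with the unit: per Mb those of both B6 lists did, and per gene those of all lists but B6 H3K27ac. Among the 10 tiles into which chromosome 1 was divided, the neighbourhood ranked 3 from the top in NOD H3K4me3, 2 in NOD H3K27ac, 3 in B6 H3K4me3, 7 in B6 H3K27ac and 3 in number of genes. The strain balance was not particular to it. NOD held 68.9% of its listed H3K27ac regions, rank 3, where the other tiles ranged from 43.0% to 75.3%. For H3K4me3 NOD held 63.9%, rank 3, with other tiles from 43.9% to 67.7%.

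**Figure D1:**
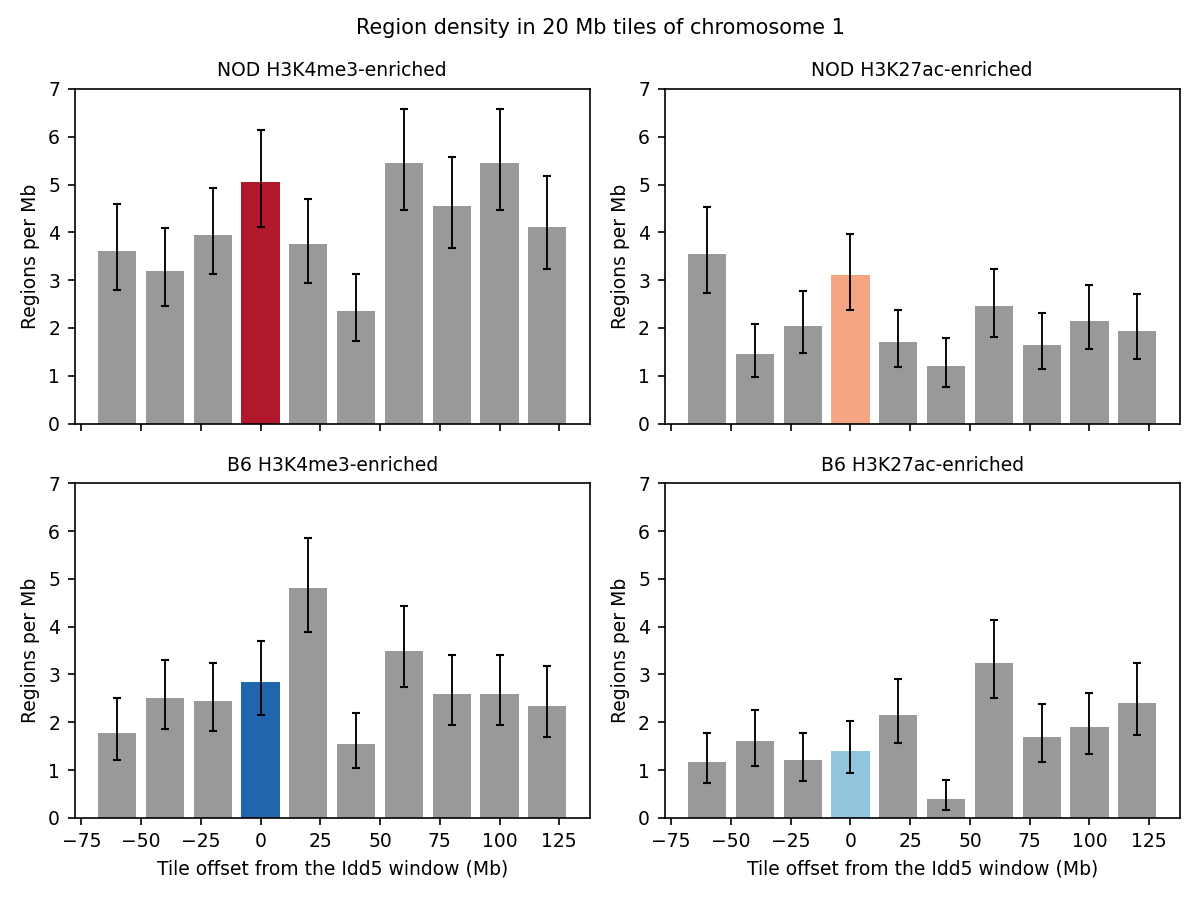
Listed regions per Mb (vertical axis) in consecutive tiles of chromosome 1, placed by their offset in Mb from the Idd5 neighbourhood (offset 0, coloured), with 1 panel per list; bars are densities and whiskers are exact 95% Poisson intervals for counting error. The coloured NOD H3K27ac bar, at 3.10 per Mb, is exceeded only by the first tile, at 3.56 per Mb, while the coloured B6 H3K27ac bar, at 1.40 per Mb, lies below the median of the other tiles, 1.70.

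The regions were not spread evenly over the neighbourhood. NOD H3K4me3 regions were most dense in the bins at 65 to 66 Mb and at 74 to 75 Mb, with 13 regions each, against a median of 4.5 per 1 Mb bin. The first of these bins holds the crystallin cluster and the second holds Slc11a1, Wnt6, Wnt10a and Ihh. B6 H3K4me3 regions peaked at 8 in the bin at 59 to 60 Mb, around Fzd7 and Bmpr2, and B6 H3K27ac regions reached their maximum of 5 in the same bin and again at 72 to 73 Mb. NOD H3K27ac regions had their maximum of 8 at 58 to 59 Mb, a bin that runs from the aldehyde oxidases past Casp8, and at 72 to 73 Mb. The gene-poor 6 Mb from 66 to 72 Mb, dominated by Erbb4, Spag16 and Ikzf2, held 14 NOD and 15 B6 regions of H3K4me3. It was the only one of 6 segments compared in which the B6 H3K4me3 list was the longer one.

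**Figure D2:**
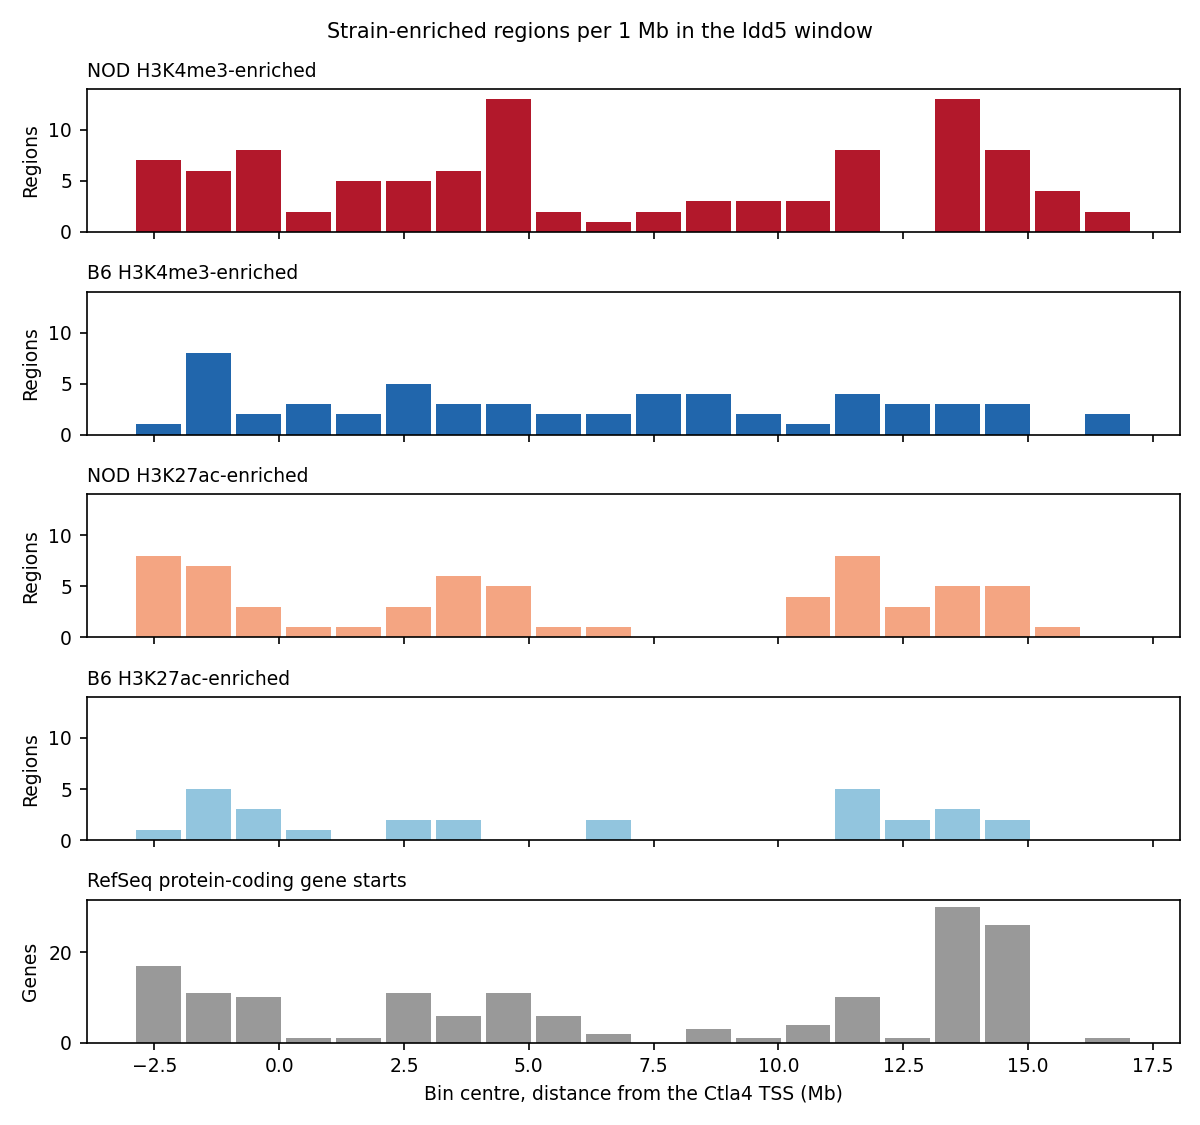
Numbers of listed regions (vertical axis, 1 panel per list) and of RefSeq protein-coding genes (bottom panel) in 1 Mb bins, placed by the distance of the bin centre from the Ctla4 TSS in Mb. The highest NOD H3K4me3 bars, 13 regions each, stand 4.59 and 13.6 Mb after Ctla4, and the highest B6 H3K4me3 bar, 8 regions, stands before Ctla4.

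Within the regions, the tags differed strongly between the libraries, as the calling rule requires, so these values are descriptions. A NOD H3K4me3 region held between 13 and 251 NOD tags with a median of 32, beside a median of 2 B6 tags. A B6 region held between 11 and 503 B6 tags with a median of 19, beside a median of 1 NOD tag. In 41 of 101 NOD regions (40.6%, beside 34.9% of the whole list) the other strain had no tag, and in 27 of 57 B6 regions (47.4%, beside 37.8%). Most regions were a single window of 500 bp, 62.4% of the NOD and 87.7% of the B6 regions. On the rest of the chromosome these shares were 77.5% and 82.9%. In the neighbourhood 6 of 101 NOD and 0 of 57 B6 regions were 1 kb or wider, beside 38 of 711 and 10 of 473 on the rest. Within 1 kb of a protein-coding TSS were centred 10 NOD (9.90%) and 4 B6 (7.02%) H3K4me3 regions, beside 7.59% and 8.67% on the rest of the chromosome. By location, 45 NOD and 25 B6 regions were centred in introns and 32 and 23 between genes.

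**Figure D3:**
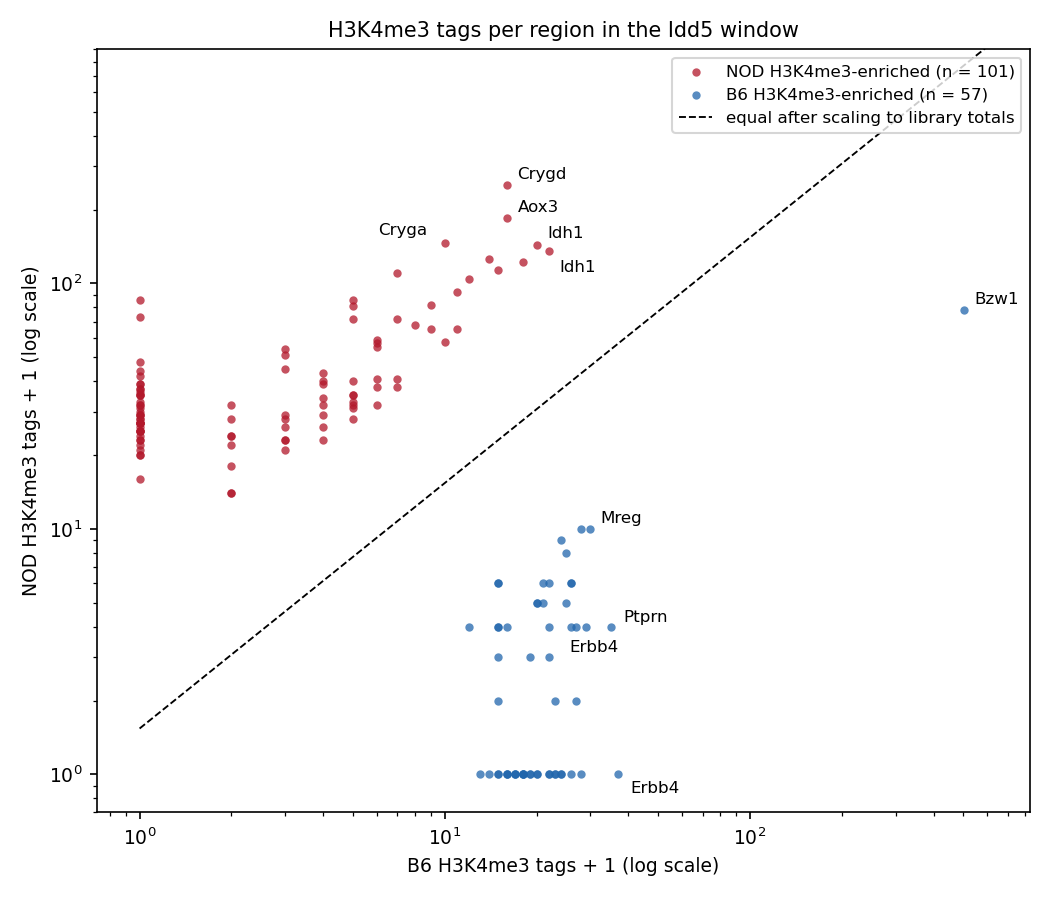
H3K4me3 tags per region in the Idd5 neighbourhood, with B6 tags plus 1 on the horizontal and NOD tags plus 1 on the vertical axis (both log scales); each point is 1 listed region, red for NOD-enriched (n = 101) and blue for B6-enriched (n = 57), and the dashed line marks equal tags after scaling to the library totals. The 5 regions with most tags of each list carry the name of their nearest gene; Bzw1, at 503 B6 and 77 NOD tags, stands far from the other B6 regions, none of which exceeds 36 B6 tags.

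The genes for which the interval is known carried no listed region. Ctla4, Icos, Cd28 and Slc11a1 had none in the gene or within 5 kb of a TSS. From the TSS of Ctla4 the nearest region centre was 91.7 kb away, and from that of Slc11a1 it was 37.7 kb away. Near Cd28, the non-coding gene 2310016D23Rik held a NOD H3K4me3 region with 27 NOD and 1 B6 tags, a B6 H3K4me3 region with 18 B6 and 2 NOD tags, and a B6 H3K27ac region with a score of 16.9. The first of these lies in repeated sequence, as only 29.9% of its stretches of 50 bases occur once in the genome. Farther on, between Cd28 and Ctla4, a NOD H3K4me3 region at chr1:60815481-60815981 (42 NOD and 3 B6 tags) overlapped a NOD H3K27ac region with a score of 39.5. The score of an H3K27ac region is the difference in signal between the strains as the authors computed it, on a scale that is not stated.

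Of the 6 Idd5 candidates and costimulatory receptors, 2 carried regions, where 47.1% of all protein-coding genes did. Nrp2, a receptor for semaphorins and VEGF, held NOD H3K4me3 regions with 64 NOD and 8 B6 tags at 3.46 kb from its TSS and with 23 NOD and 1 B6 tags farther inside, and a NOD H3K27ac region with a score of 27.1. Pard3b, a cell polarity gene, held intronic NOD regions with 25 and 21 NOD tags and no B6 tag, and a B6 region with 15 B6 and no NOD tags. Among 8 other immune and islet autoantigen genes, Casp8, Cflar, Cxcr1, Cxcr2 and Gpbar1 carried no region.

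Ptprn carried regions of B6 only. It encodes IA-2, a protein of the secretory granules of neuroendocrine cells and an autoantigen in type 1 diabetes. At one of its TSSs, chr1:75263284-75264071 held 34 B6 and 3 NOD tags, or a fold of 17.4 (5.48 to 88.7) after scaling to the library totals. In an intron of the same gene, chr1:75252653-75253153 held 27 B6 tags and no NOD tag. With 3 tags taken as the floor its fold was 13.8 (lower bound 10.5). Both regions consisted wholly of sequence that occurs once in the genome. Ikzf2, which encodes the transcription factor Helios of regulatory T cells, held an intronic region of each strain, with 28 NOD tags in one and 22 B6 tags in the other and no tag of the opposite strain. Ica1l, a relative of the islet autoantigen ICA69, held an intronic NOD region with 47 NOD tags and no B6 tag. With the same floor its fold was 10.2 (lower bound 7.96).

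Of 152 protein-coding genes that start in the neighbourhood, 51 (33.6%) had a NOD H3K4me3 region that overlapped the gene or came within 5 kb of a TSS, beside 24.2% of all 21774 genes. For B6 H3K4me3 they were 23 (15.1%, beside 16.3%), for NOD H3K27ac 32 (21.1%, beside 16.3%) and for B6 H3K27ac 14 (9.21%, beside 14.4%). On the rest of chromosome 1 the share for NOD H3K4me3 was 26.8% and that for B6 H3K27ac was 14.9%. With all lists together, 79 genes (52.0%, 95% interval 44.1 to 59.8) carried a region, beside 47.1% of all genes and 51.0% on the rest of the chromosome. Of the 152, 48 (31.6%) carried regions of NOD only, beside 20.9% of all genes, 12 (7.89%, beside 14%) of B6 only and 19 (12.5%, beside 12.1%) of both. On the rest of chromosome 1 these shares were 22.3%, 15.1% and 13.6%.

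The gamma-crystallin cluster and its flanks held NOD regions of both marks. In the 173 kb from Akr1cl to Idh1 there were 9 NOD H3K4me3 and 5 NOD H3K27ac regions and 0 of B6. The 9 regions together held 973 NOD and 84 B6 tags, or a fold of 7.53 (6.02 to 9.53), and 20.6% of the NOD tags in all NOD H3K4me3 regions of the neighbourhood. The strongest was chr1:65061815-65063880, which spans the whole of Crygd and its TSS, with 251 NOD and 15 B6 tags, or a fold of 10.9 (6.47 to 19.7). Crygc held NOD regions with 40 NOD and 6 B6 tags just inside its TSS and with 36 NOD and no B6 tags near its other end. Upstream of Cryga stood regions with 30 NOD and 4 B6 tags at 1.19 kb, 145 NOD and 9 B6 tags at 5.43 kb, and 109 NOD and 6 B6 tags at 8.79 kb. The latter pair lies in the gene D630023F18Rik.

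Not every crystallin gene carried a listed region. Cryge had a NOD H3K27ac region, score 14.9, at 0.893 kb upstream of its TSS but no H3K4me3 region. Crygb, Crygf and the beta-crystallin gene Cryba2 had no listed region of either mark within 5 kb, which does not show whether both strains carried the marks alike there. The promoters of Crygb and Crygf hold the same TATATA as that of Crygd printed above. In all, 4 of 7 crystallin genes carried regions of either mark in NOD only, and 0 carried a B6 region. Over all genes, 20.9% carried regions of NOD only, 14% of B6 only and 12.1% of both strains. Sequence shared between the paralogs bears on how reads are placed. Of the stretches of 50 bases in the Crygd region 87.8% occur once in the genome, and of those in the region next to the Crygc TSS 60.4% do, the lowest share in the cluster.

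**Figure D4:**
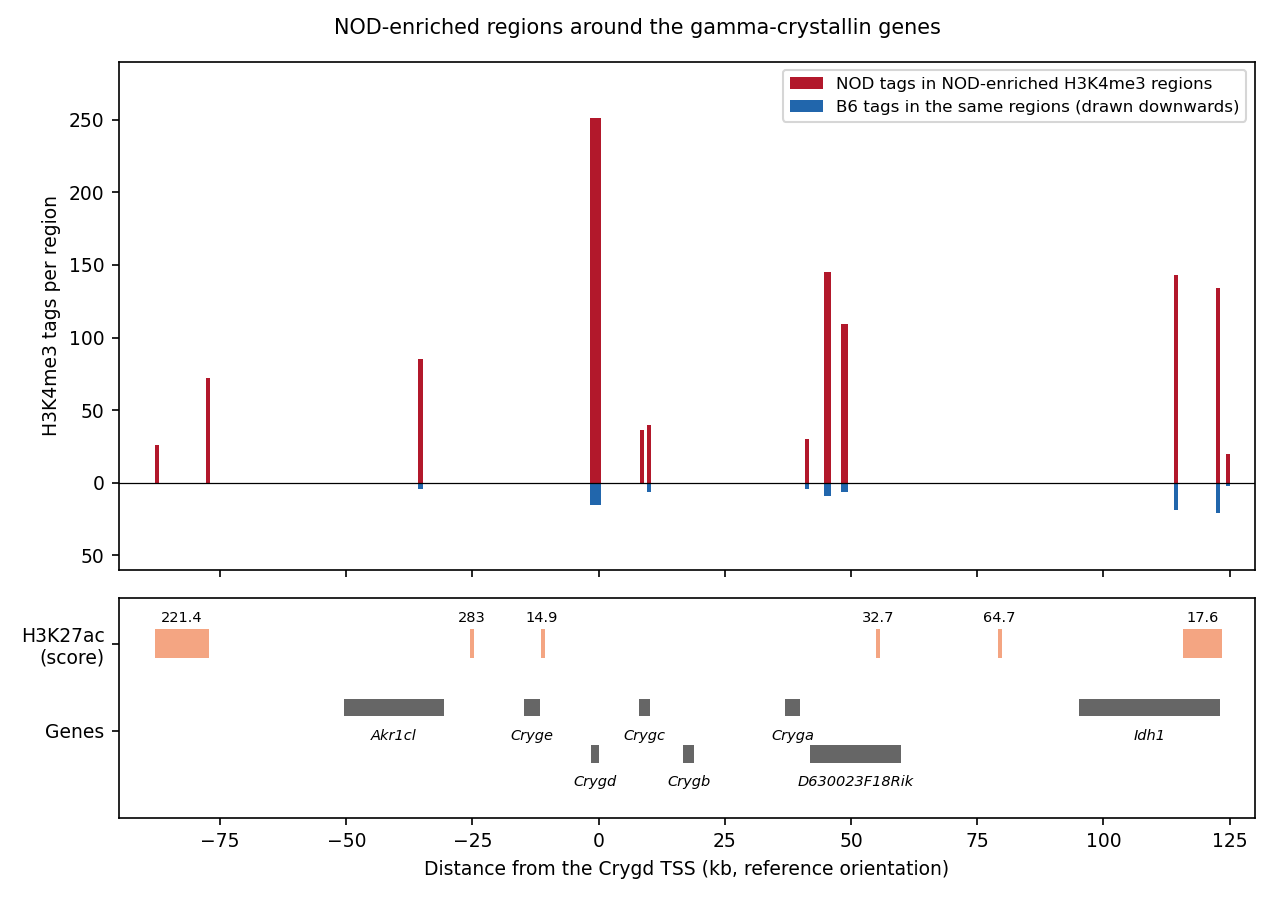
NOD-enriched regions around the gamma-crystallin genes, by distance from the Crygd TSS in kb in the orientation of the reference: the upper panel gives H3K4me3 tags per region, NOD upwards in red and B6 downwards in blue, and the lower panel gives H3K27ac regions with their scores above the gene bodies (regions are drawn at least 0.9 kb wide). NOD tags reach 251 at Crygd, B6 tags never exceed 21, and the highest H3K27ac score, 283.0, lies between Akr1cl and Cryge.

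H3K27ac flanked the same cluster. The highest score of the neighbourhood, 283.0, belonged to chr1:65037935-65038588, between Akr1cl and Cryge and 5.50 kb upstream of the Akr1cl TSS, centred in an RMER6A element, a long terminal repeat (LTR) of the ERVK class of endogenous retroviruses. Akr1cl, an aldo-keto reductase gene, held an intronic NOD H3K4me3 region with 85 NOD and 4 B6 tags, or a fold of 13.8 (5.20 to 51.9). On the near side, the region chr1:64975487-64986191 between Plekhm3 and Akr1cl was 10.7 kb wide with a score of 221.4. NOD H3K4me3 stood at both of its ends, with 26 NOD tags at one and 72 NOD tags at the other, and no B6 tag at either. On the far side, Idh1, the cytosolic isocitrate dehydrogenase, held NOD H3K4me3 regions with 134 NOD and 21 B6 tags and with 143 NOD and 19 B6 tags, folds of 4.15 (2.61 to 6.92) and 4.89 (3.02 to 8.37). A NOD H3K27ac region of 7.73 kb with a score of 17.6 overlapped the first of them and reached the TSS of Pikfyve, a lipid kinase gene that starts next to Idh1 and held a NOD H3K4me3 region with 20 NOD and 2 B6 tags. The folds at Idh1 lie near the threshold of 4 that the authors set for calling a region.

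At the start of the neighbourhood lies the aldehyde oxidase cluster, whose enzymes oxidise aldehydes and nitrogen heterocycles. Aox1, Aox2 and Aox3 each carried NOD regions of both marks, Aox4 carried none, and 0 of the 4 carried a B6 region. Of all protein-coding genes, 24.2% carried a NOD H3K4me3 and 16.3% a NOD H3K27ac region. For B6 the shares were 16.3% and 14.4%. Aox3 had the second-highest NOD H3K4me3 region of the neighbourhood, chr1:58113155-58115283 just inside the gene, with 184 NOD and 15 B6 tags, or a fold of 7.98 (4.71 to 14.5). A NOD H3K27ac region 2.54 kb upstream of its TSS, with a score of 126.4, was centred in an LTRIS2 element of the ERV1 class, and 65.9% of its stretches of 50 bases occur once in the genome. Aox1 held a NOD H3K4me3 region with 28 NOD and 3 B6 tags near its end and a NOD H3K27ac region with a score of 11.5 near its TSS. In Aox2 a NOD H3K4me3 region with 67 NOD and 7 B6 tags coincided with a NOD H3K27ac region with a score of 8.56, which was centred in an L1Md_F3 element and had 34.6% unique stretches.

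Signalling genes carried regions of both strains, in different places. Of 11 genes of the Wnt, BMP, hedgehog and growth factor pathways, 9 carried a region, beside the 47.1% of all genes, and Igfbp5 and Epha4 did not. In the 371 kb from Wnt6 to Nhej1 there were 8 NOD H3K4me3 regions with 637 NOD and 63 B6 tags in all, a fold of 6.57 (5.07 to 8.66), beside 1 B6 H3K4me3 region. For H3K27ac the same stretch held 0 NOD regions and 1 B6 region, in an intron of Nhej1 with a score of 9.84. Wnt6, which encodes a secreted Wnt ligand, held 121 NOD and 17 B6 tags over its TSS, a fold of 4.63 (2.77 to 8.20). Wnt10a, the neighbouring ligand, held regions with 103 NOD and 11 B6 tags and with 43 NOD and no B6 tags, both in its later exons. Ihh, the ligand Indian hedgehog, held 125 NOD and 13 B6 tags over its TSS, a fold of 6.25 (3.53 to 12.1). The transcription factor gene Fev, of the serotonergic lineage, held 80 NOD and 4 B6 tags in a coding exon, a fold of 13.0 (4.89 to 48.9). Farther along, Inha, the alpha subunit of inhibin, had NOD regions with 44 NOD and 2 B6 tags and with 27 NOD and 2 B6 tags on either side.

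Fzd7, a Wnt receptor that is active in pluripotent cells, showed the B6 side of the same pathway. The B6 H3K27ac region chr1:59472130-59488425, 16.3 kb wide, covered the whole gene and had a score of 111.8, the highest of the 28 B6 regions. Upstream of it lay B6 H3K27ac regions with scores of 46.9 at 33.4 kb and 41.1 at 57.2 kb, which are also among the 5 highest of that list. A B6 H3K4me3 region in the coding exon of Fzd7 held 23 B6 and 8 NOD tags, or a fold of 4.42 (1.91 to 11.4). Beyond those regions, 89.6 kb upstream of Fzd7, a NOD H3K4me3 region held 85 NOD tags and no B6 tag. With a floor of 3 tags its fold was 18.4 (lower bound 14.7). Bmpr2, a BMP receptor, held B6 H3K4me3 regions with 25 B6 and 5 NOD tags and with 18 B6 and no NOD tags. It also held a B6 H3K27ac region with a score of 12.0, while a NOD H3K27ac region with a score of 24.1 stood 1.18 kb upstream of its TSS.

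Bzw1, a regulator of translation initiation, had the highest B6 H3K4me3 region of the neighbourhood. Its promoter region chr1:58392138-58393079 held 503 B6 and 77 NOD tags, or a fold of 10.05 (7.89 to 12.9), and overlapped a B6 H3K27ac region with a score of 39.0. This region alone held 503 of the 1618 B6 tags in all B6 H3K4me3 regions of the neighbourhood. The receptor gene Erbb4, which spans 1077 kb, held 5 B6 H3K4me3 regions with up to 36 B6 tags and 3 NOD regions with 65 NOD tags in all and no B6 tag. Repeated sequence made up much of 3 of the 5 B6 regions in Erbb4, where 34.8% (the strongest), 19.9% and 38.3% of the stretches of 50 bases were unique. Mreg, a melanosome transport gene, had H3K4me3 regions of both strains upstream. The nearest, 2.40 kb from its TSS, was a NOD region with 40 NOD and 5 B6 tags, or a fold of 5.20 (2.05 to 16.9), and a B6 region at 25.7 kb held 29 B6 and 9 NOD tags, or a fold of 4.96 (2.28 to 11.9). NOD regions with 24 NOD and no B6 tags and with 37 NOD and 6 B6 tags stood on either side of the B6 one.

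The imprinted Gpr1-Zdbf2 locus carried listed regions of both strains. Zdbf2 is expressed from the paternal allele, and the locus is controlled in the early embryo. A B6 H3K27ac region in an intron of Zdbf2, chr1:63239242-63248186, had a score of 92.1, the second-highest of the B6 list in the neighbourhood. A NOD H3K4me3 region 0.626 kb downstream of an internal TSS of Gpr1 held 34 NOD tags and no B6 tag, a fold of 7.37 with a floor of 3 tags (lower bound 5.67). It lies where the bodies of Gpr1 and Zdbf2 overlap. A B6 region in another intron of Gpr1 held 14 B6 tags and 1 NOD tag.

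Genes for transcription, chromatin and DNA repair carried both strong and weak regions, where the median NOD H3K27ac score of the neighbourhood was 16.6. All 8 genes of that list held 1 region each, of which 4 were NOD H3K27ac regions at or in Bard1 (score 57.9), Creb1 (11.4), Klf7 (10.8) and Orc2 (6.53). Ino80d, a subunit of the INO80 remodelling complex, held an intronic NOD H3K4me3 region with 91 NOD and 10 B6 tags. Fev, described above, held one with 80 NOD and 4 B6 tags. Xrcc5, which encodes Ku80, held a B6 H3K27ac region with a score of 13.6, and Smarcal1 a B6 H3K4me3 region with 21 B6 and no NOD tags. In the Smarcal1 region only 48.5% of the stretches of 50 bases were unique. Of 8 metabolic enzymes, Idh1, Pecr and Ndufs1 carried regions. Pecr held a NOD H3K27ac region with a score of 5.41, and Ndufs1, a subunit of complex I, held a B6 H3K4me3 region with 17 B6 and no NOD tags. Over all 8 gene lists, which were chosen with earlier results known, 34 of 54 genes carried a region, beside 52.0% of all genes of the neighbourhood and 47.1% of all genes, 22 of them a NOD H3K4me3, 10 a B6 H3K4me3, 13 a NOD H3K27ac and 5 a B6 H3K27ac region.

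Both marks of a strain met at few places. Of the NOD H3K4me3 regions 7 (6.93%, beside 5.81% of the whole list) overlapped a NOD H3K27ac region, and of the B6 H3K4me3 regions 2 (3.51%, beside 3.63%) overlapped a B6 H3K27ac region. Seen from the other mark, 6 of 62 NOD H3K27ac regions (9.68%, beside 9.84%) and 2 of 28 B6 H3K27ac regions (7.14%, beside 4.65%) overlapped H3K4me3 of their own strain. Overlaps with H3K27ac of the opposite strain numbered 0 for both, beside 0.886% and 0.58% of the whole lists. Counting all regions within 5 kb of a TSS, 6 genes had both marks of the same strain, namely Aox3, Raph1, Idh1 and Pikfyve in NOD and Bzw1 and Fzd7 in B6. Raph1, which encodes the actin regulator lamellipodin, held 64 NOD and 10 B6 H3K4me3 tags inside its TSS and a NOD H3K27ac region with a score of 23.4 just upstream. Such genes made up 3.95% of the neighbourhood's, beside 3.88% of all genes. None of the 152 genes had H3K4me3 regions of both strains within 5 kb of a TSS, beside 1.31% of all genes.

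LTR elements held a larger part of the NOD H3K27ac score than of the NOD H3K27ac regions. Of the 62 NOD regions, 16 (25.8%, beside 20.1% of the whole list and 23.9% on the rest of the chromosome) were centred in an LTR element, and these held 48.7% of the summed score, against 29.8% on the rest of the chromosome. Among the 28 B6 regions 1 was, at 3.57% beside 14.6%. The 10 NOD regions centred in an ERVK element had a median score of 46.5, and the 46 outside LTRs had 14.2. Besides RMER6A, high scores stood at an MLTR25A element 3.83 kb upstream of the cell adhesion gene Adam23 (196.8). Another stood at an MMERVK9E element between Cflar and Casp8, where chr1:58761174-58769737 was 8.56 kb wide with a score of 160.0. At its end nearest to Casp8, the initiator caspase of death receptors, a NOD H3K4me3 region held 31 NOD and 4 B6 tags. The fifth-highest score, 130.6, stood at an MLT1H2 element in the non-coding gene Gm32622. As reads of both strains were mapped to the B6 reference, copies that differ between the strains were not resolved, and their part in these scores was not tested.

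**Figure D5:**
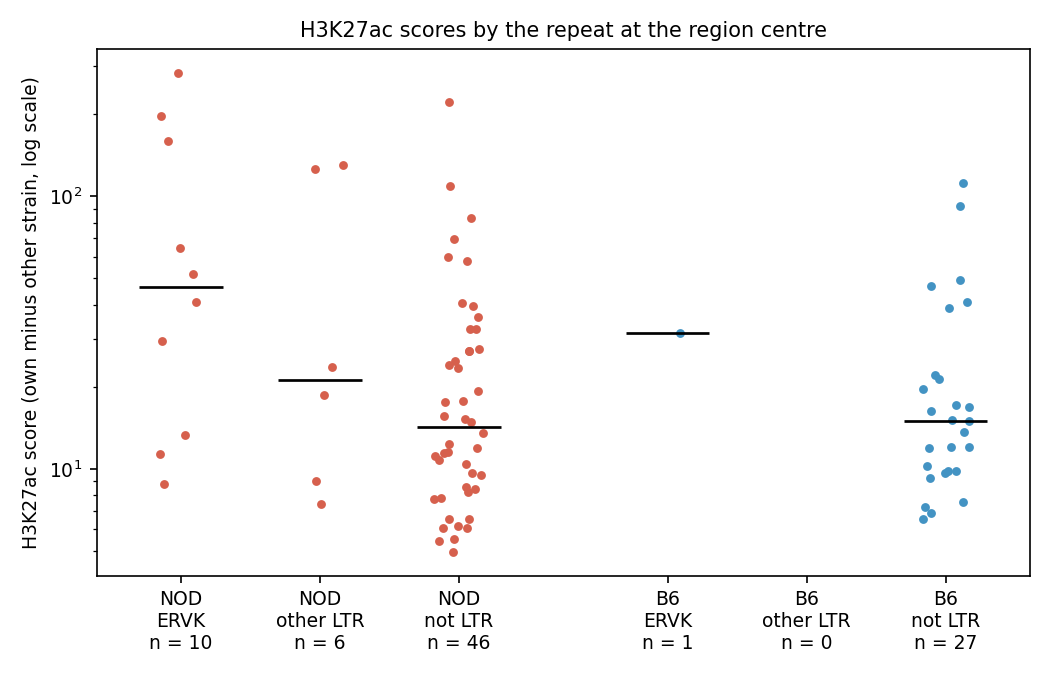
H3K27ac score (own strain minus other strain, log scale) of each listed region in the Idd5 neighbourhood, by strain and by the repeat at the region centre; points are regions and black lines are medians. The NOD regions centred in ERVK elements reach 283.0 with a median of 46.5, against a median of 14.2 for NOD regions outside LTRs, and the B6 list has a single LTR-centred region, at 31.4.

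Regions with a slope value of at least 1 on the authors' ranked curve, counted here as super enhancers, numbered 7 in NOD (11.3%, beside 8.16% of the whole list) and 2 in B6 (7.14%, beside 7.06%). The 2 of B6 are those at Fzd7 and in Zdbf2, and the 7 of NOD are those near Akr1cl, Plekhm3, Adam23, Casp8, Aox3 and Fam117b and in Gm32622. Most of the 7 were not wide domains. Only those near Plekhm3 and Casp8, at 10.7 and 8.56 kb, exceeded 5 kb. Those near Fam117b, Akr1cl and Adam23 were 0.484, 0.653 and 0.667 kb wide. The one 25.9 kb upstream of Fam117b, with a score of 109.5, overlapped a NOD H3K4me3 region with 39 NOD and 4 B6 tags. The paper also names Igfbp2 among its top NOD super enhancers, which this count does not include. Of the NOD H3K27ac regions whose nearest gene was Igfbp2, the highest slope value was 0.877, at a score of 69.6. At a single place both strains' H3K27ac lists met. A B6 region with a score of 31.4 at chr1:67966842-67968633, in an RLTR13E element between Cps1 and Erbb4, enclosed a NOD region with a score of 8.78, of which 45.4% of the stretches of 50 bases were unique.

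The edges of the neighbourhood were set by position and cut through no region. The NOD H3K4me3 region nearest outside, 2.00 kb before the start, held 29 NOD and 3 B6 tags, and the first one inside, in Aox1, held 28 NOD and 3 B6 tags. At the end, the last NOD region inside held 34 NOD tags and no B6 tag and the next outside held 37 NOD and 1 B6 tags. For B6 H3K4me3, the first region inside was that of Bzw1 and the last held 14 B6 and 5 NOD tags, between regions outside with 26 B6 and 3 NOD tags and with 19 B6 and 2 NOD tags. The H3K27ac scores of the nearest regions inside were 11.5 and 82.9 in NOD and 39.0 and 19.7 in B6. Those of the nearest regions outside were 9.80 and 9.91 in NOD and 14.4 and 6.56 in B6. At the end, these regions were centred far from the edge, 1967 kb inside and 490 kb outside in NOD. In B6 they were centred 2656 kb inside and 2403 kb outside.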

How the data were processed

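H3K4me3 and H3K27ac ChIP-Seq lists of NOD and B6 ES cells were analysed, 1 library each. According to the study's methods, the authors mapped reads to mm10 with bowtie2 and called regions with HOMER. The submitters' processing notes also name mm9, CASAVA 1.8.2 and STAR 2.2.0c. The file headers name mm10, and the deposited TSS distances fitted GRCm38.p6 within 5 bp for 545 of 748 H3K27ac regions of chromosome 1. Per the file headers, H3K4me3 regions were called with peaks of 500 bp, at least 8 tags, and at least 4-fold more tags than the other strain at a Poisson p of 1.00e-04. The deposited tag count per region is whole for B6. The deposited signal for NOD is scaled to the B6 library total, and multiplying by the ratio of library totals, 1.54, gave whole NOD tags within 0.1 for 100.0% of regions. The deposited placeholders for regions without tags in the other strain were set to 0. The deposited normalised signal, the deposited fold ratio and the authors' H3K4me3 peak score were not printed. The deposited H3K27ac score is own minus other strain signal on an unstated scale, without counts, so its depth is unknown.

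A region belonged to the neighbourhood by its midpoint. Genes were 21774 RefSeq protein-coding genes, and TSSs came from curated transcripts where present. A gene carried a region that overlapped its body or came within 5 kb of a TSS. Folds are tags after scaling to library totals with exact conditional binomial intervals at 95%. Where the other strain had no tag, a floor of 3 tags per library gave the fold, and the lower bound came from the counts. Shares carry Wilson intervals and densities exact Poisson intervals. No p-value was computed, since 1 library per group allows no replicate test. Unique stretches are stretches of 50 bases found once on chromosomes 1 to 19, X and Y. Repeats at H3K27ac centres came from the deposited annotation, and regions with a slope value of at least 1 were counted as super enhancers. All 13 promoters looked up matched the RefSeq table. Functions were tested on simulated data. Python 3.11.15, numpy 2.4.6, pandas 2.3.3, scipy 1.17.1 and matplotlib 3.10.9 were used.

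The neighbourhood and the 8 gene lists were chosen with earlier results of these data known. Regions and genes were named by rule: the 5 with most own-strain tags or the highest score per list, up to 4 carrying genes per gene list, genes with both marks, overlaps of opposite strains, edges and the densest bins. A few neighbours of these were added after their values were seen, namely 2310016D23Rik, the region between Cd28 and Ctla4, Fam117b, Akr1cl's intron, the pair upstream of Cryga, the NOD region upstream of Fzd7, Fn1, and further genes of the signalling and transcription lists.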

Additional observations from a re-analysis of the deposited data

How the results depend on the processing

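No paired analysis was possible because each strain and mark had 1 library and no test was run. Of 91 alternative values for 15 results, 74 stayed within the counting error of the reported one, 16 moved beyond it and 1 reversed. The NOD H3K4me3 density ratio of 1.25 became 0.964 per protein-coding gene, 1.0003 in the narrower span from Ctla4 to Slc11a1 and 1.61 with at least 20 scaled tags, where the strain ratio over the rest of the chromosome rose from 1.18 to 1.71 (1.06 to 2.77). Its lower bound of 1.002 fell to 0.911 without the stretch from Akr1cl to Idh1, an alternative chosen after seeing the data. The NOD H3K27ac density ratio was 1.29 (0.889 to 1.82) in the narrower span. With 16 other autosomes in place of the rest of chromosome 1, the NOD density ratios were 1.12 (0.910 to 1.36) in H3K4me3 and 1.28 (0.983 to 1.65) in H3K27ac, both now including 1, whereas the B6 H3K27ac ratio, 0.639 (0.424 to 0.925), no longer did. Gene shares followed the rule for assigning regions. With regions within 1 kb of a TSS they were 8.55% for NOD H3K4me3, 3.95% for B6 H3K4me3, 8.55% for NOD H3K27ac and 1.97% for B6 H3K27ac, and within 20 kb of the gene 49.3%, 27.6%, 32.9% and 16.4%. With a fold of at least 8 or a slope value of at least 1 they were 23.0% for NOD H3K4me3 and 1.32% for H3K27ac of each strain. Genes of the 8 lists with a region numbered 18 within 1 kb of a TSS and 20 under the stricter fold or slope, in place of 34.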

Other observations

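H3K4me3 regions of opposite strains lay within 5 kb of each other at 4 places, which were looked for after the data had been seen. In the last exon of Fzd5, a Wnt receptor gene, a NOD region with 34 NOD and 4 B6 tags and a B6 region with 21 B6 and 5 NOD tags were 434 bp apart. Beyond Cps1 a NOD region with 23 NOD and 1 B6 tags and a B6 region with 27 B6 and 9 NOD tags were 319 bp apart. The gaps were 3.71 kb upstream of Mreg and 3.45 kb downstream of Wnt10a. No replicate shows whether these neighbours differ in the same way in another library.

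Fn1, which encodes the matrix protein fibronectin, held intronic NOD H3K4me3 regions with 71 NOD and 6 B6 tags and with 21 NOD and 1 B6 tags, and a NOD H3K27ac region with a score of 8.45. Igfbp2, which encodes an insulin-like growth factor binding protein, had a NOD H3K4me3 region with 39 NOD and 3 B6 tags at 0.491 kb upstream of its TSS and a NOD H3K27ac region of 6.94 kb with a score of 7.84 inside the gene. It also had NOD H3K27ac regions in the upstream non-coding gene Gm30847 with scores of 69.6, 11.9 and 6.19, and a B6 H3K27ac region with a score of 22.1 at 2.92 kb inside its TSS. Regions with fewer than 50% unique stretches numbered 6 of 57 in B6 and 2 of 101 in NOD for H3K4me3, and 2 NOD and 0 B6 for H3K27ac. The wide regions carried most of the covered H3K27ac length, as 6 NOD regions over 5 kb made up 61.9% and 3 B6 regions 64.6%.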
